A study of Mus musculus with 8 samples.

Results

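The genes described here are 10 members of the BCL2 family that set the balance between survival and death of a cell: Bcl2, Bcl2l1, Mcl1, Bcl2l11, Bbc3, Pmaip1, Bax, Bak1, Bid and Bmf. They were taken by name, as the probe sets that the array platform annotates to exactly 1 of these symbols, and each of the 9 that were found had a single such probe set. Bax had no probe set of its own under that rule and was not analysed here, so 9 of the 10 genes were followed among 19937 genes with a symbol. The cells were regulatory T cells (Tregs), a suppressive kind of CD4 T cell that carries the transcription factor FoxP3. They had been sorted on FoxP3 from wild-type mice (WT) and from mice labelled as Bcl6 knock-out (KO), Bcl6 being a transcriptional repressor. Every sample had been stimulated with antibodies to CD3 and CD28 for 16 h before its RNA was taken, so no unstimulated cells serve as a reference, and 100 ng of total RNA went onto each Affymetrix array. The titles give each of the 8 arrays a number and a letter, and the 2 arrays A and B that share a number are called a preparation here (KO 1, KO 2, WT 1 and WT 2). Whether the numbers or letters stand for different mice, cultures or repeat arrays is not stated, nor is the age of the mice, so the p-values rest on the spread between arrays alone, and that spread may be technical. All levels are log2 expression values, and differences are differences of log2.

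Proteins of the BCL2 family meet at the outer membrane of the mitochondrion. Survival members such as BCL2, BCL-XL (from Bcl2l1) and MCL1 hold back the effectors BAX and BAK (from Bak1), which otherwise open pores that release cytochrome c and start the caspases. BH3-only members, among them BIM (Bcl2l11), PUMA (Bbc3), NOXA (Pmaip1), BID and BMF, sense stress or loss of growth signals and bind the survival members, and some of them also engage the effectors directly. In Tregs MCL1 and BIM are known as a main opposing pair, and interleukin 2 supports survival.

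The arrays differed in ways that touch every result. Over all probe sets, log2 values had an SD of 1.87 and 1.84 in the KO 1 arrays, against 1.56 to 1.70 in the other 6. Bcl6 itself was at 9.0 and 8.82 in KO 1, 8.54 and 8.51 in KO 2 and 7.86 to 8.36 in WT. The removed part of the gene is not given, so its level is no check of the genotype, and the arrays are called KO-labelled. The mean of 3 Y-linked genes was 4.62 to 4.80 in KO-labelled and 6.94 to 8.30 in WT arrays, so genotype and this difference cannot be told apart. The summed level of the 6 Treg markers (Foxp3, Il2ra, Ctla4, Ikzf2, Cd4 and Cd3e) was 13.16 to 13.90 in KO-labelled and 12.45 to 13.19 in WT arrays. Among markers of other cells, 3 of 4 measured for B cells summed to 8.00 to 8.36 against 7.85 to 8.08, and 4 of 4 for myeloid cells to 8.86 to 9.08 against 8.56 to 8.89. Single markers of both lists went both ways. Of the B cell markers Cd79b differed by 0.33, Cd79a by -0.26 and Ms4a1 by -0.02. Of the myeloid markers Lyz2 differed by 0.35, Cd68 by 0.35, Csf1r by -0.12 and Itgam by -0.02. Both CD8 T cell markers summed to 8.22 to 8.60 against 8.40 to 8.81, and both NK cell markers to 5.74 to 6.0 against 5.95 to 6.07. None of the 3 erythroid markers was measured. The part of these in the results was not tested, and in bulk RNA fewer cells of a type and less RNA per cell cannot be told apart.

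Promoter sequence is shown for Bcl2l1 and Bak1, whose arrays separated by genotype label as deposited, and for Bcl2, whose arrays did not. Other scalings of the arrays, given below, changed this for Bcl2l1 and for Bcl2. Each sequence is the 250 bases before a start site, 5′ to 3′ on the gene's strand, from the RefSeq table of build GRCm38.p6. Capitals mark GC boxes (GGGCGG, or CCGCCC on the other strand) and CCAAT boxes (CCAAT or ATTGG); motifs and windows were chosen after the values were seen. Bcl2 lies on the minus strand at chr1:106714291-106714540, Bak1 on the minus strand at chr17:27028628-27028877 and Bcl2l1 on the minus strand at chr2:152830718-152830967, which is the window with the highest GC share of its 3 start sites.

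Bcl2: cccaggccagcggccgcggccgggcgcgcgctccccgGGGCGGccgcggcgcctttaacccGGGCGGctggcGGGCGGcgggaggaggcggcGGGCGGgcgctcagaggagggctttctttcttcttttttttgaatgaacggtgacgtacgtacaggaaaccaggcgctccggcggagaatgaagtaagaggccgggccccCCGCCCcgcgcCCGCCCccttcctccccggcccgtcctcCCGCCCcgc
Bak1: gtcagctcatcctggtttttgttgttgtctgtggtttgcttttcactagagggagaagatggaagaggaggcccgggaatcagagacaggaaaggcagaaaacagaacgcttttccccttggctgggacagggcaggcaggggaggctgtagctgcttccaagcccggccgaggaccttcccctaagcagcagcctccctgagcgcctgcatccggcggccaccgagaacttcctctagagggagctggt
Bcl2l1: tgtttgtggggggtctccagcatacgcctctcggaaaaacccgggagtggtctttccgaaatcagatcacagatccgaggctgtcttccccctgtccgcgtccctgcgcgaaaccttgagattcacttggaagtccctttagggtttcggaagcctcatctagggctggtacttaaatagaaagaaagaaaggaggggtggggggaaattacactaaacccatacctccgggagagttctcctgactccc

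The Bcl2 window had a GC share of 74.8% and 7 GC boxes, while those of Bak1 (58.4% GC) and Bcl2l1 (53.2% GC) had 0 GC boxes, and none of these 3 windows held a CCAAT box. Windows of the other measured genes whose arrays did not separate varied too. Bmf had 0 GC boxes in each of its windows, Mcl1 1, Bid 3, Bcl2l11 3 and 2, and Bbc3 5, 1 and 7. Over all 32851 windows of the table, 32.7% held a GC box and 33.8% a CCAAT box. The motif TTCNNNGAA, which STAT5 binds and which overlaps the motif of BCL6, reads the same on both strands. The table holds windows for 9 of the 10 genes, Bax among them but not Pmaip1, which was therefore not searched. The motif was in 0 of their 16 windows of 300 bases, some of which overlap each other, against 8.3% of all windows. These are matches of letters in short windows and describe no binding.

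None of the 9 genes passed the test of KO-labelled against WT arrays. With limma and Benjamini-Hochberg adjustment over all genes, 0 were higher and 0 lower at an adjusted p under 0.05, where 0.12% of all genes were called higher and 0.015% lower. Before adjustment, 3 had a p under 0.05 with a higher level (Pmaip1, Bak1 and Bcl2l1) and 0 with a lower one, against 5.65% and 0.542% of all genes. In the same 3 genes every KO-labelled array lay above every WT array, which held for 6.67% of all genes, and in 0 of the 9 did every KO-labelled array lie below, which held for 2.11%. The 3 genes are a survival gene, an effector and a BH3-only gene. The median difference of the 9 genes was 0.31, against -0.06 over all genes.

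**Figure D1:**
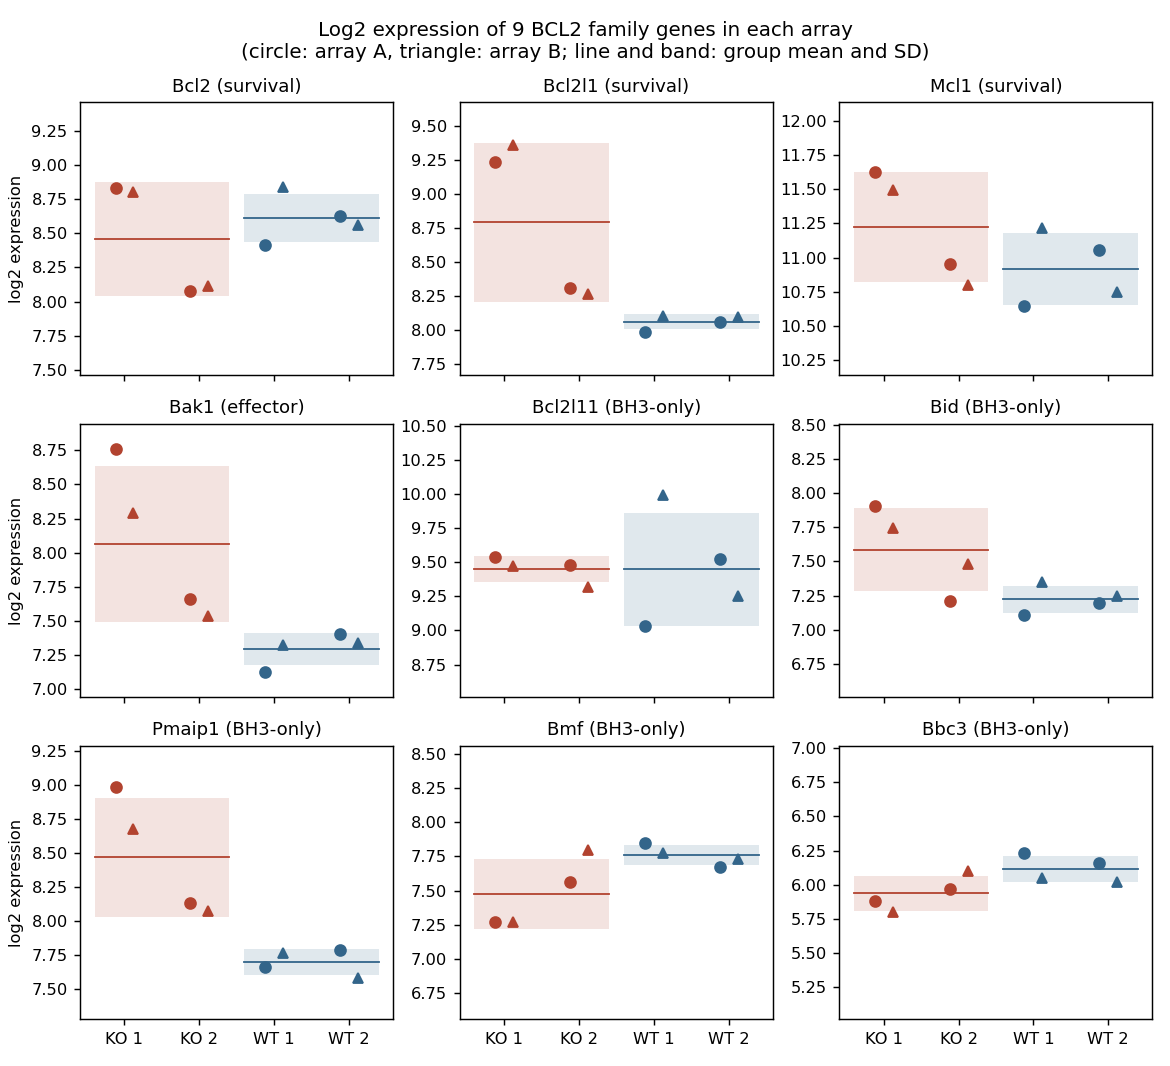
Log2 expression of the 9 genes in each array, with KO-labelled arrays in red and WT arrays in blue; every panel spans 2 log2 units. In Bcl2l1, Bak1 and Pmaip1 all KO-labelled arrays lie above all WT arrays and KO 1 lies above KO 2, while Bcl2 in KO 2 lies below every WT array.

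Among the survival genes, Bcl2l1 separated the groups. Bcl2l1 (probe set 10488655), whose main product BCL-XL guards the mitochondrial membrane, was at 9.23 and 9.36 in KO 1, 8.31 and 8.27 in KO 2, 7.98 and 8.11 in WT 1 and 8.06 and 8.10 in WT 2. KO 1 was far above the narrow WT range and KO 2 just above it. The mean was 8.79 ± 0.58 in KO-labelled and 8.06 ± 0.055 in WT arrays (SD, n = 4 each), a difference of 0.73 (SE 0.29, limma adjusted p = 0.701) or 1.66-fold, with a 95% interval of 0.095 to 1.36.

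Bcl2 (probe set 10357043), the founding survival gene, was below WT in KO 2 but not in KO 1 in the values as deposited. It was at 8.83 and 8.81 in KO 1, 8.08 and 8.11 in KO 2, 8.42 and 8.84 in WT 1 and 8.63 and 8.56 in WT 2. Both KO 2 arrays lay below all 4 WT arrays, and both KO 1 arrays lay within the WT range near its upper end. The pooled difference of -0.15 (SE 0.28, limma adjusted p = 0.773) therefore averages 0.21 in KO 1 and -0.52 in KO 2.

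Mcl1 (probe set 10494306), a short-lived survival protein that Tregs depend on, overlapped between the groups. It was at 11.63 and 11.50 in KO 1, 10.96 and 10.80 in KO 2, 10.64 and 11.21 in WT 1 and 11.05 and 10.75 in WT 2. KO 1 was highest and KO 2 lay within the WT range. Its order over the arrays was that of their SD (1.87 and 1.84 in KO 1, then 1.70 in WT 1B, down to 1.56 in WT 1A), apart from an exchange of KO 2A and WT 2A. The difference was 0.31 (SE 0.35, limma adjusted p = 0.704), and it was -0.10 (adjusted p = 0.417) in a fit with the array SD as a covariate.

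Of the listed effectors Bax and Bak1, Bak1 alone was measured. Bak1 (probe set 10449303), which forms pores in the outer mitochondrial membrane, was at 8.76 and 8.29 in KO 1, 7.66 and 7.54 in KO 2, 7.12 and 7.32 in WT 1 and 7.40 and 7.33 in WT 2. The KO 1 arrays were well above the WT range, and the KO 2 arrays above it by a small margin. The mean was 8.06 ± 0.57 against 7.29 ± 0.12 (SD, n = 4 each), a difference of 0.77 (SE 0.31, limma adjusted p = 0.701) or 1.70-fold, with a 95% interval of 0.098 to 1.43.

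Among BH3-only genes Pmaip1 had the smallest p of the 9 genes. Pmaip1 (probe set 10456357), which encodes NOXA, a partner of MCL1, was at 8.98 and 8.68 in KO 1, 8.13 and 8.08 in KO 2, 7.67 and 7.77 in WT 1 and 7.79 and 7.58 in WT 2. The KO 2 arrays lay between the KO 1 and the WT arrays, with no overlap on either side. The mean was 8.47 ± 0.44 against 7.70 ± 0.096 (SD, n = 4 each), a difference of 0.77 (SE 0.27, limma unadjusted p = 0.0147, adjusted p = 0.619) or 1.70-fold, with a 95% interval of 0.18 to 1.35. As a measure of likeness, the genes with the highest Pearson r to Pmaip1 over the 8 arrays were Siae (0.995), Cdca7l (0.994) and Aurka (0.993). As many as 3356 genes had an r over 0.9 to it, and these points share the KO 1 arrays set apart from the rest.

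Bcl2l11 (probe set 10475866), which encodes BIM, the BH3-only protein that removes lymphocytes deprived of cytokine, had no difference in its mean but a wide WT spread. It was at 9.53 and 9.48 in KO 1, 9.48 and 9.32 in KO 2, 9.03 and 9.99 in WT 1 and 9.52 and 9.25 in WT 2. All 4 KO-labelled arrays lay inside the span of the pair of WT 1 arrays. The difference was 0.0030 (SE 0.37, limma adjusted p = 0.996), and its 95% interval of -0.80 to 0.80 covers a change of either sign.

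The other BH3-only genes differed by less than Pmaip1. Bid (probe set 10547531), which caspase 8 cleaves to link death receptors to mitochondria, was at 7.90 and 7.75 in KO 1, 7.21 and 7.48 in KO 2 and 7.11 to 7.35 in WT. KO 2A lay within the WT range and the other KO-labelled arrays above it, with a difference of 0.36 (SE 0.24, limma adjusted p = 0.701). Bmf (probe set 10486112), named for its binding partner BCL2, was at 7.27 in both KO 1 arrays, 7.56 and 7.80 in KO 2 and 7.68 to 7.85 in WT. Only KO 2B reached the WT range, with a difference of -0.28 (SE 0.23, limma adjusted p = 0.701). Bbc3 (probe set 10550290), the p53 target that encodes PUMA, was at 5.88 and 5.80 in KO 1, 5.97 and 6.10 in KO 2 and 6.02 to 6.23 in WT. KO 2B lay within the WT range and the others below it, with a difference of -0.18 (SE 0.18, limma adjusted p = 0.701).

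**Figure D2:**
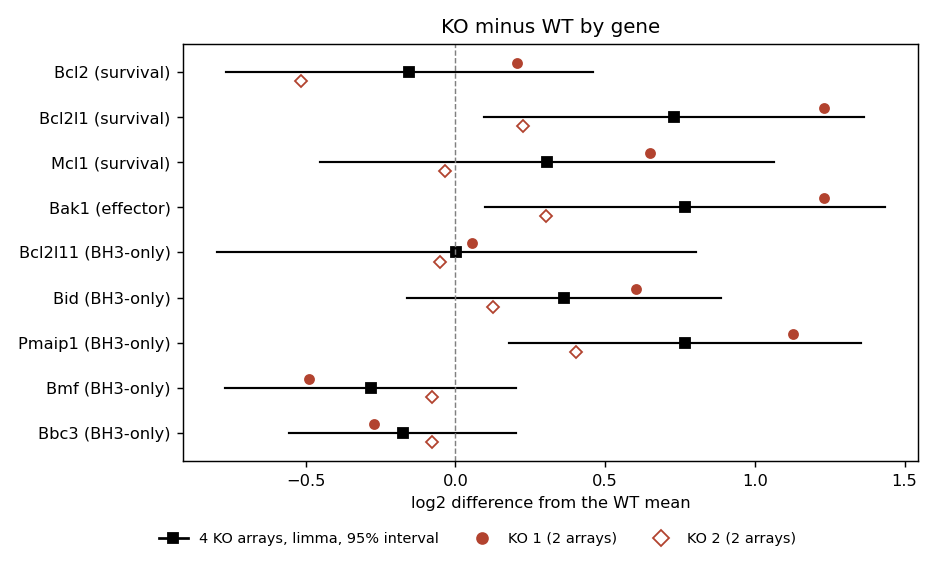
Log2 difference of KO-labelled from WT arrays for each gene, as the limma estimate over 4 arrays with its 95% interval (square and line) and as the mean of KO 1 (filled circle) and of KO 2 (open diamond) minus the WT mean. Intervals lie above 0 for Bcl2l1, Bak1 and Pmaip1 before any adjustment, and KO 1 lies further from 0 than KO 2 in 8 of the 9 genes (all but Bcl2), as it does in 90.3% of all genes.

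Most of the 9 genes differed between the KO preparations. In a fit with a mean for each preparation, whose error is the spread between arrays A and B, 6 of the 9 genes were higher in KO 1 than in KO 2 and 1 was lower at a limma adjusted p under 0.05. Of all genes 27.7% were higher and 31% lower, 58.8% together, against 7 of the 9 (77.8%), so most genes of the array were called in this contrast and nothing particular to the BCL2 family is read from the count. The genes higher in KO 1 were Bcl2l1 by 1.01 (SE 0.16, adjusted p = 0.00131), Bak1 by 0.93 (SE 0.18, adjusted p = 0.00313), Pmaip1 by 0.73 (SE 0.17, adjusted p = 0.00597) and Bcl2 by 0.72 (SE 0.18, adjusted p = 0.00748). Mcl1 was higher by 0.69 (SE 0.26, adjusted p = 0.0414) and Bid by 0.48 (SE 0.16, adjusted p = 0.0265). Bmf was lower by 0.41 on the log2 scale (difference -0.41, SE 0.15, adjusted p = 0.0370). Bcl2l11 and Bbc3 did not pass (adjusted p = 0.731 and 0.218). Between WT 1 and WT 2 limma called 0 of the 9 genes and 0% of all genes, with 210 genes and 0 of the 9 at an unadjusted p under 0.05, and the 9 differences ran from -0.15 to 0.12.

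How much of this remained depended on the scaling of the arrays. As deposited the median of KO 1 minus KO 2 over all genes was -0.13, after quantile normalization, which gives all arrays 1 spread, it was 0.027, and with every array centred at its own median it was 0.15. After quantile normalization 18.7% of all genes and 2 of the 9 were called between KO 1 and KO 2, Bcl2l1 at 0.54 (SE 0.13, limma adjusted p = 0.0221) and Bak1 at 0.65 (SE 0.17, adjusted p = 0.0293). After median centring 45.4% of all genes and 6 of the 9 were called, Bmf no longer among them. The means of Bcl2l1, Bak1, Pmaip1 and Bid stayed above the WT mean in both KO preparations under all 3 scalings. The KO-labelled and WT arrays nevertheless overlapped for Bid under all 3 and for Bcl2l1 after median centring. The KO 2 differences of Pmaip1, Bak1, Bcl2l1 and Bid hardly moved. Pmaip1 was at 0.40, 0.43 and 0.37 as deposited, quantile normalized and median centred. In that order Bak1 was at 0.30, 0.31 and 0.26, Bcl2l1 at 0.23, 0.20 and 0.19, and Bid at 0.12, 0.12 and 0.086. The KO 1 differences moved more, from 1.23 to 0.75 and 1.47 for Bcl2l1 and from 1.13 to 0.75 and 1.37 for Pmaip1.

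Bcl2 was below WT in KO 2 under each scaling, at -0.52, -0.59 and -0.55 in the same order. In KO 1 its sign turned with the scaling, at 0.21, -0.28 and 0.45. After quantile normalization all 4 KO-labelled arrays were below all 4 WT arrays for Bcl2, with a difference of -0.43 (SE 0.14, limma adjusted p = 0.235). Bcl2l11 in KO 1 was at 0.056, -0.47 and 0.30 and Bbc3 at -0.27, 0.043 and -0.030, so neither had a stable direction there. The Bmf mean was below the WT mean in both preparations under all 3 scalings, with overlap of the KO-labelled and WT arrays under each.

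**Figure D3:**
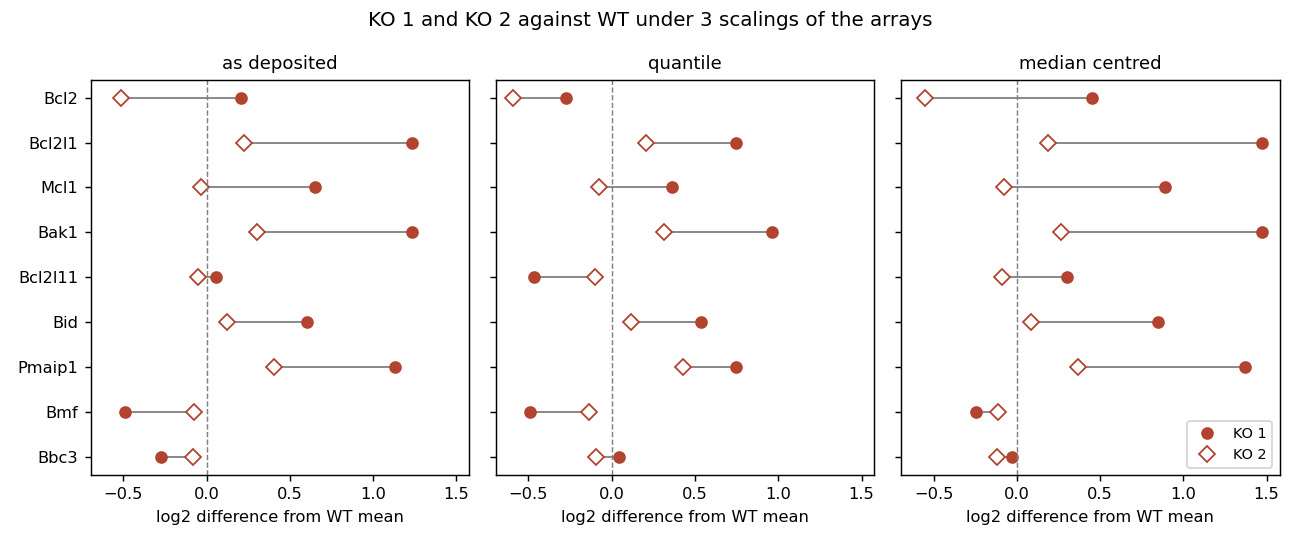
Log2 difference of KO 1 (filled circles) and KO 2 (open diamonds) from the WT mean for each gene, with values as deposited, after quantile normalization and after median centring. The KO 2 points keep their places across the panels while the KO 1 points shift, and Bcl2 in KO 1 moves from 0.21 to -0.28 and 0.45.

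Without the KO 1 arrays, KO 2 alone differed from WT in 3 of the 9 genes when the random block for preparations was kept: Bcl2 by -0.52 (SE 0.081, limma adjusted p = 0.00249), Pmaip1 by 0.40 (SE 0.073, adjusted p = 0.0057) and Bak1 by 0.30 (SE 0.080, adjusted p = 0.0436), where 7.35% of all genes were called. The within-preparation correlation that this fit estimated was -0.629. With no random block 0 of the 9 and 0.722% of all genes were called, with 3 of the 9 and 6.43% of all genes at an unadjusted p under 0.05, and the adjusted p was 0.266 for Bcl2, 0.341 for Pmaip1 and 0.729 for Bak1. With all arrays and the array SD as a covariate, a fit that 12.5% of all genes passed, Bcl2 was at -0.56 (SE 0.065, adjusted p = 1.0e-04) and Pmaip1 at 0.38 (SE 0.079, adjusted p = 0.00728), and the other 7 genes did not pass. In that fit, whose estimated within-preparation correlation was -0.367, Bcl2l1 was at 0.21 (adjusted p = 0.199), Bak1 at 0.28 (adjusted p = 0.114) and Bid at 0.11 (adjusted p = 0.433), against 0.73, 0.77 and 0.36 without the covariate. A negative correlation can narrow the SE of a group difference, so the p-values of the fits that estimated one can be too small. The covariate was not fitted without the random block. Over the 8 arrays, which share the KO 1 pair set apart, the level followed the array SD with a Pearson r of 0.976 for Mcl1, 0.932 for Bcl2l1, 0.924 for Bak1, 0.914 for Bid, 0.913 for Pmaip1 and -0.907 for Bmf. An r over 0.9 was found for 24.2% of all genes and one under -0.9 for 25.9%. Without KO 2 limma called 84.8% of all genes and 8 of the 9, so nothing particular to these genes can be read from KO 1 alone.

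The rest of the cell death pathway was followed in 4 lists written from textbook knowledge, with 54 of 62 genes measured. With limma 0 were called higher and 0 lower, and before adjustment 8 of the 54 had a p under 0.05, all of them higher in KO-labelled arrays, the side on which 5.65% of all genes lay against 0.542% on the lower one: Bcl2a1c, Birc5, Apaf1, Aifm1, Il7r, Il2ra, Il2rb and Dynll1. The other BCL2 family genes stood closest to 0: 13 of 16 were measured, 5 above and 8 below 0, with a median of -0.03 (-0.05 in KO 1 and 0.0002 in KO 2). Apart from Bnip3l at 10.20, their WT means lay between 5.36 (Bcl2l10) and 8.75 (Hrk). Those of the inducers and regulators below ran from 6.70 (Fbxw7) to 10.48 (Pim1). The part of level and of the wider KO 1 spread in this contrast between lists was not tested. Bcl2a1c, a copy of the A1 survival gene family whose members are near-identical and can share probes, was at 8.09 and 7.98 in KO 1, 7.38 and 7.31 in KO 2 and 6.88 to 7.29 in WT. Its arrays did not overlap between the groups, with a difference of 0.64 (SE 0.27, limma adjusted p = 0.701). Bcl2l13 differed by 0.62 (SE 0.38), with 1.23 in KO 1 and 0.013 in KO 2, and Hrk, a BH3-only gene best known in neurons, by -0.27 (SE 0.27).

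Of the caspase cascade that follows pore formation 14 of 16 genes were measured, and 13 lay above 0. The median was 0.39, made of 0.80 in KO 1 and 0.06 in KO 2. In KO 1 11 genes were higher than in KO 2, against the 27.7% of all genes given above. Over all genes the median was -0.06, made of -0.13 in KO 1 and 0.02 in KO 2, and the share above 0 is not given here. The medians and counts above 0 of the lists are for values as deposited only. The part of the wider KO 1 spread in them was not tested. Birc5, the inhibitor of apoptosis survivin, which also serves cell division, was at 7.58 and 7.28 in KO 1, 6.58 and 6.73 in KO 2 and 6.18 to 6.43 in WT, with no overlap of the groups and a difference of 0.71 (SE 0.26, limma adjusted p = 0.661). Apaf1, the scaffold of the apoptosome, differed by 0.71 (SE 0.30, adjusted p = 0.701), also with no overlap. Aifm1, a mitochondrial flavoprotein, differed by 0.85 (SE 0.37, adjusted p = 0.701), with KO 2A and KO 2B inside the WT range.

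The death receptor route to Bid held 7 of 8 genes, 6 of them above 0, with a median of 0.35 (0.54 in KO 1 and 0.13 in KO 2). Cflar, the FLIP inhibitor of caspase 8, differed by 0.77 (SE 0.39) and Casp8 by 0.71 (SE 0.40), each with overlap of the groups and a limma adjusted p of 0.701. Fadd, the adaptor that recruits Casp8, differed by 0.35 (SE 0.20, adjusted p = 0.701) with no overlap.

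Inducers and regulators of the family held 20 of 22 genes, 16 of them above 0, with a median of 0.40 (0.67 in KO 1 and 0.04 in KO 2). The smallest p values belonged to receptor chains for cytokines that support survival. Il7r, the interleukin 7 receptor, was at 10.73 and 10.67 in KO 1, 10.26 and 10.17 in KO 2, 8.27 and 9.32 in WT 1 and 8.41 and 8.86 in WT 2. Both KO preparations were well above all WT arrays, KO 1 by 1.99 and KO 2 by 1.5 from the WT mean, with a pooled difference of 1.75 (SE 0.41, limma adjusted p = 0.246). Without WT 1B, where 0.286% of all genes were called, Il7r was called (limma adjusted p = 0.0103). With no block for preparations it was called (adjusted p = 0.0115) beside 0.567% of all genes. After quantile normalization (1.48, adjusted p = 0.0263) the share was 0.787%. In KO 2 alone with no random block (1.5, adjusted p = 0.0268) it was 0.722%. Fits with no block take arrays A and B as independent. Il7r was not called with a block by letter, array weights, robust fitting, no variance trend or median centring, nor without any other single array. Il2ra, the alpha chain of the interleukin 2 receptor and also a Treg marker above, differed by 1.49 (SE 0.47, adjusted p = 0.51) and Il2rb, its beta chain, by 1.10 (SE 0.37, adjusted p = 0.561), both with no overlap. Beside these, Bcl2 lay at -0.52 in KO 2, where Il7r was 1.5, Il2ra 0.77 and Il2rb 0.70 above the WT mean.

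**Figure D4:**
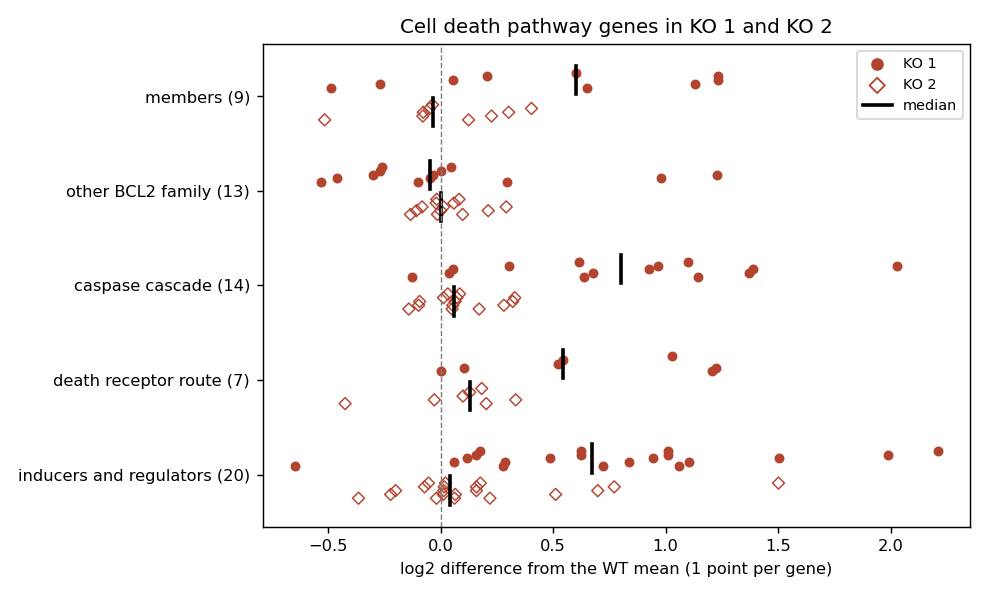
Log2 difference from the WT mean of the 9 genes and of the 4 pathway lists, 1 point per gene, for KO 1 (filled circles) and KO 2 (open diamonds), with black bars at the medians. The KO 1 medians of 4 of the 5 rows lie between 0.54 and 0.80 and the KO 2 medians between -0.04 and 0.13, while the other BCL2 family genes centre near 0 in both.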

How the data were processed

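RNA from 8 samples was measured on Affymetrix arrays. The deposited values are log2 expression summaries of probe sets; the submitters' processing notes name RMA and Partek, with no version or filter. RMA usually makes arrays alike in distribution, yet their spreads differed, which can widen or narrow differences for whole sets of genes. The table held 28768 probe sets, 21771 of them with 1 symbol in a platform annotation that may be dated; where a gene had several, the one of highest mean was kept. All columns were used (0 unused). No further scaling or filter was applied.

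Groups came from sample titles. The test of KO-labelled against WT arrays used limma 3.58.1 and R 4.3.3 (variance trend, two-sided), with preparation as a random block (correlation 0.617), and Benjamini-Hochberg adjustment over 19937 genes; KO 1 minus KO 2 and WT 1 minus WT 2 came from a fit of preparation means. The test was checked on simulated data. The number of arrays limits precision. Members, lists and tests were chosen with earlier results of these data known. Named genes were all members, in each list the 3 genes of smallest p, and the 3 genes most like the member with the smallest p. Promoters came from a RefSeq table; no protein sequence was used here.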

Additional observations from a re-analysis of the deposited data

Results flagged for a closer look

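The KO preparations differed from each other in 7 of the 9 genes at a limma adjusted p under 0.05, where 58.8% of all genes did, and in 2 of the 9 after quantile normalization, so as deposited their differences from the shared WT arrays were not of 1 size. The KO 1 minus KO 2 difference was 0.72 for Bcl2, 1.01 for Bcl2l1, 0.69 for Mcl1, 0.73 for Pmaip1, 0.93 for Bak1, 0.48 for Bid and -0.41 for Bmf on the log2 scale. The KO 1 arrays also had the widest spread of values over all probe sets (SD 1.87 and 1.84, against 1.65 and 1.61 in KO 2), and its part was tested only through the scalings and the covariate given above. In none of the 9 genes did the gap between an outlying array and its nearest neighbour, divided by the range of the 4 arrays of its group, pass Dixon's 95% critical value for 4 samples. The highest were 0.73 for Bcl2l11 in KO 2B, 0.70 for Bak1 in WT 1A and 0.65 for Bcl2l1 in WT 1A.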

How the results depend on the processing

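Over 27 other settings for each of the 9 genes, 210 of 243 KO minus WT differences kept their sign and their side of the threshold. Of the rest, 14 changed sign and 20 became called, 1 of these with a changed sign (Bcl2 without KO 2, limma adjusted p = 0.0326). No call could be lost, since none had been made. With all arrays, changing only the block, the variance trend, robust fitting, the gene filter or the probe sets left the estimates as they were. The kept signs under those settings are therefore no measure of stability. With the number 1 or 2 as a fixed replicate block, limma called 3.4% of all genes, 1 of the 9 higher (Pmaip1, 0.77, adjusted p = 0.0389) and 5 pathway genes higher (Il7r, Il2ra, Il2rb, Birc5 and Dynll1); deviations of same-numbered preparations correlated at 0.416, but 2 numbers with no stated shared source do not pair the samples. A block by letter called 0 of the 9. With the array SD as a covariate 1 of the 9 was higher and 1 lower, and 8 pathway genes were higher and 2 lower (Fas and Stat5b). Without KO 1, a fit calling 7.35% of all genes, 2 of the 9 were higher and 1 lower, with 5 and 1 pathway genes. Without KO 2 they were 6 and 2, and 35 and 6, where 84.8% of all genes were called. With no random block and without KO 2 they were 5 higher and 1 lower, with 30 and 3 pathway genes. That fit called 67.1% of all genes, so nothing particular to these genes is read from its counts. With no random block and without KO 1 they were 0 of the 9 and 1 pathway gene, Il7r, where 0.722% of all genes were called. Il7r was also the 1 pathway gene called higher with no block, with preparation means, after quantile normalization and without WT 1B; leaving out single arrays gave 0 to 1. Between KO 1 and KO 2 quantile normalization left 2 calls among the 9. Sign changes were those of Bcl2 (0.21 without KO 2, with and without the block), Mcl1 (-0.10 with the covariate and -0.036 without KO 1, with and without the block) and Bcl2l11 (-0.29 after quantile normalization, -0.14 with the covariate, -0.050 without KO 1, -0.059 without WT 2, and -0.22 to 0.23 leaving out single arrays). Causes were not tested. Signal over background was not used here.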
